A study of Homo sapiens with 2 samples.

Results

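Long noncoding RNAs, 10 in all, were chosen by name: the nuclear RNAs NEAT1 and MALAT1, the imprinted RNAs H19 and MEG3, the small nucleolar RNA host genes GAS5, SNHG6 and SNHG8, and EPB41L4A-AS1, NORAD and DANCR. Of these, 6 of 10 had values among the 33538 genes counted, and H19, GAS5, SNHG6 and DANCR were not analysed here. Droplet libraries of the Ewing sarcoma cell lines CHLA9 and TC71 were covered, with 1 library of each line, made with a 3′ kit in which each captured RNA molecule carries a unique molecular identifier (UMI) and the barcode of its droplet. Both are established lines with the EWSR1-FLI1 fusion, 1 untreated culture of each, CHLA9 in IMDM with 20% fetal bovine serum and an insulin-transferrin-selenite supplement and TC71 in RPMI-1640 with 10% serum. CHLA9 was also sequenced a second time on another instrument, so line, medium and sequencing cannot be told apart. With 1 library per line there was no replicate check and no test was made.

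Long noncoding RNAs are transcripts that are not translated into protein and that act, where a role is known, as RNA. NEAT1 is the scaffold of paraspeckles, nuclear bodies built around SFPQ, NONO and other RNA-binding proteins, and MALAT1 gathers in nuclear speckles, where splicing factors are stored. MEG3 is a maternally expressed RNA of the imprinted DLK1-DIO3 region. SNHG8 and EPB41L4A-AS1 carry small nucleolar RNAs in their introns, and the spliced exons of such host genes are often targets of nonsense-mediated decay. NORAD sequesters RNA-binding proteins of the Pumilio family and is known as a mainly cytoplasmic RNA, so the named genes are not all nuclear, and the counts give no position within the cell.

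Barcodes were kept as cells when they had 5000 or more UMIs, 2000 or more genes and no more than 15% of UMIs from the 13 mitochondrial MT- genes, which left 4524 of 5077 barcodes in CHLA9 and 1729 of 8468 in TC71. These cells had 174975302 UMIs in all in CHLA9, at a median of 34656 per cell, and 58355173 in TC71, at a median of 33370. The 7 Ewing sarcoma markers, CD99 and CCND1 among them, were each above 5 CPM (UMIs of the gene per 1000000 UMIs of the group) in both lines, and of 10 markers of blood, epithelial, endothelial, liver and fibroblast cells only COL1A1 was, at 56.0 CPM in CHLA9 and 10.2 in TC71. The libraries shared 16 barcodes, of which 3 were kept in both, and each count of members past a fold limit was the same without them. Doublets were not removed, and the doublet caller Scrublet marked 274 cells in CHLA9 (6.06%) and 12 in TC71 (0.694%). Each library held 1 line, so no cell type that lacks these genes was there to show how much free RNA entered the droplets.

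Sequence features that bear on how these RNAs are known to work, and on how a 3′ kit that primes on runs of A can capture them, are shown for 5 of the 6 measured genes (GENCODE 44 transcripts on GRCh38, the build of the counts). NEAT1 (chr11:65422774-65445540, plus strand) has a long form of 22743 bases in 1 exon and a short form. The short form shown is 1 of 9 annotated transcripts, spliced from 3 exons to 2994 bases. It ends just after an AATAAA polyadenylation signal. MALAT1 (chr11:65497640-65508073, plus strand) has a run of 13 A, which is part of the A-rich stretch known to form a triple helix at its mature 3′ end. Capitals mark the AATAAA and the run of A.

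NEAT1 short form, chr11:65426454-65426513: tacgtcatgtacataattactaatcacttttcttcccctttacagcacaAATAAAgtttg
MALAT1, chr11:65506073-65506135: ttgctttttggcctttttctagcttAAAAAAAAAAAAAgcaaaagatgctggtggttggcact

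A run of A at least as long as that of MALAT1 was found in 38.8% of 461 canonical transcripts within 10% of its length, so it is not rare at this length. The counts are sums per gene and do not say which of these sites, or which NEAT1 form, the UMIs came from.

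NORAD (chr20:36045618-36051018, minus strand) is a single exon of 5401 bases with 15 copies of the Pumilio element TGTANATA on its own strand, where N is any base. Among 1864 canonical transcripts within 10% of its length, NORAD included, 45.7% held at least 1 copy and 2 held as many as NORAD. The closest pair of elements is shown, with the elements in capitals.

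NORAD, chr20:36049488-36049534, minus strand: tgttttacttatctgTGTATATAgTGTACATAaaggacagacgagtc

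SNHG8 (chr4:118278703-118285316, plus strand) and EPB41L4A-AS1 (chr5:112160526-112164818, plus strand) have transcripts that begin with C and a run of pyrimidines, as do the mRNAs of ribosomal proteins and translation factors known as 5′ terminal oligopyrimidine mRNAs. Only 1 chosen transcript of each gene is shown, of 15 annotated for SNHG8 and 9 for EPB41L4A-AS1, and the starts of the others were not examined. Of 252835 annotated transcripts, 0.228% begin with CTTTC as the chosen ones do. CTTTC was read off the chosen transcripts, so its low share is no measure of how rare such starts are. The share of transcripts that begin with C and any run of pyrimidines was not counted. Capitals mark the leading pyrimidines.

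SNHG8, chr4:118278758-118278797: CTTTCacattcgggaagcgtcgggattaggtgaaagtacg
EPB41L4A-AS1, chr5:112160865-112160904: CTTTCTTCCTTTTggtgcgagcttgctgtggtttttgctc

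These matches are descriptions of the annotated sequence, and nothing on binding or translation was measured. MEG3 (chr14:100779410-100861031, plus strand) has 50 annotated transcripts. Counted genes that overlap a member were low: PRSS12, which overlaps SNHG8, had 0.0743 CPM in CHLA9 and 3.89 in TC71, EPB41L4A, which overlaps EPB41L4A-AS1, had 0.0800 and 0.154, and the others, at MALAT1 and MEG3, had at most 0.320.

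The first comparison was between the lines. UMIs were summed over the kept cells and given as CPM, with exact 95% Poisson intervals that, like every interval here, cover counting error only. MALAT1 stood at 16804 CPM in CHLA9 and 7172 in TC71, and NEAT1 at 2259 and 979. MEG3 was at 34.8 CPM in CHLA9 and 5.33 in TC71, from 6096 and 311 UMIs. All 3 were higher in CHLA9, by 2.34-fold, 2.31-fold and 6.54-fold.

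**Figure D1:**
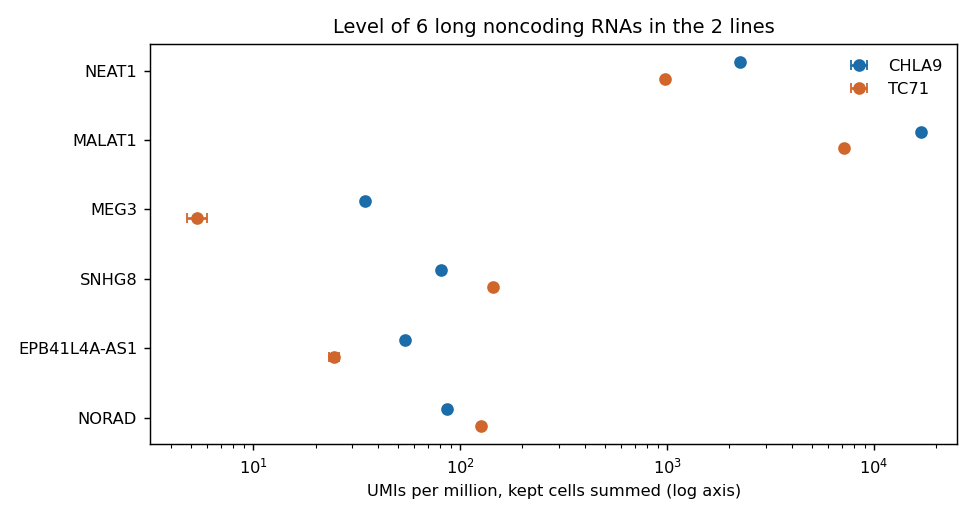
Level of the 6 measured long noncoding RNAs in CHLA9 (blue) and TC71 (orange), as CPM of UMIs summed over kept cells, on a log axis. Bars are 95% Poisson intervals (counting error only); NEAT1, MALAT1, MEG3 and EPB41L4A-AS1 lie to the right in CHLA9, and SNHG8 and NORAD in TC71.

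EPB41L4A-AS1 was at 53.8 CPM in CHLA9 and 24.6 in TC71, 2.19-fold higher in CHLA9. SNHG8 went the other way, with 80.6 and 144 CPM, a log2 ratio of CHLA9 over TC71 of -0.84 (95% interval -0.88 to -0.80), and so did NORAD with 86.7 and 126 CPM and a log2 ratio of -0.53 (-0.58 to -0.49). Thus 4 of 6 were past 2-fold higher in CHLA9 and none past 2-fold lower. Across the 10163 genes with a mean of at least 5 CPM, 16.3% were past 2-fold higher in CHLA9 and 8.77% lower, and the median log2 ratio was 0.21. With no limit on mitochondrial UMIs the log2 ratio of MALAT1 was 0.95, short of 2-fold.

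The order held within assigned cell cycle phases, which the lines filled unevenly, with 3 exceptions to the 2-fold size. MALAT1 was 1.70-fold higher in CHLA9 among G1 cells, 2.72-fold among S cells and 2.27-fold among G2M cells. NEAT1 was 2.47-fold, 2.79-fold and 1.92-fold higher in these phases, and EPB41L4A-AS1 2.24-fold, 1.99-fold and 2.30-fold. MEG3 differed by 5.86-fold to 7.80-fold, so that the lines were far apart in each phase. SNHG8 was 1.60-fold to 1.93-fold higher in TC71. NORAD had nearly equal levels in G1, with 102 CPM in CHLA9 and 106 in TC71 and a 95% interval of the log2 ratio of -0.18 to 0.07, and was 1.68-fold higher in TC71 among G2M cells.

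Shares of cells with a UMI depend on depth, so each cell was thinned to 10000 UMIs, which left out 14 CHLA9 and 59 TC71 cells. MALAT1 was found in 100% of cells of both lines and NEAT1 in 99.7% of CHLA9 and 98.3% of TC71 cells. MEG3 was found in 23.7% of CHLA9 cells (95% Clopper-Pearson interval 22.5 to 24.97) and 4.19% of TC71 cells (3.28 to 5.27), against 49.8% and 10.8% at full depth. SNHG8 was in 53.2% and 75.6% of thinned cells, EPB41L4A-AS1 in 42.0% and 22.6%, and NORAD in 54.1% and 65.7%. At full depth these 3 were in 90.7% and 96.0%, 82.5% and 53.0%, and 89.1% and 92.5%. The lines stood in the same order by share as by CPM for each gene but MALAT1, which every cell held.

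Cells of a line differed widely in NEAT1 and MALAT1. In CHLA9, thinned cells held between 3 and 932 MALAT1 UMIs, with 59 at the 10th percentile, 140 at the median and 279 at the 90th, and in TC71 between 1 and 546, with 21, 58 and 130. NEAT1 went from 0 to 241 UMIs in CHLA9, with a median of 18, and from 0 to 57 in TC71, with a median of 8. The ranges of the lines overlapped for both genes. The excess squared coefficient of variation, the variance minus the mean over the squared mean, was 0.31 in CHLA9 and 0.47 in TC71 for MALAT1 and 0.52 and 0.47 for NEAT1, where the median of 7318 genes was 0.078 and 0.082. NORAD (0.30 and 0.27) and SNHG8 (0.26 and 0.13) had lower values than NEAT1, though NORAD was close to MALAT1 in CHLA9. EPB41L4A-AS1 had 0.10 and 0.053. Values of low genes moved with another seed of the thinning, that of MEG3 from 2.18 to 1.63 in CHLA9 and from 9.40 to 6.87 in TC71. That of SNHG8 moved to 0.19 in CHLA9 and 0.068 in TC71, and that of EPB41L4A-AS1 in TC71 to 0.257.

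Other genes of the pathways these RNAs belong to were taken from lists chosen by function, and their counts are read against the 16.3% of all genes past 2-fold higher in CHLA9 and the 8.77% lower. Of 16 paraspeckle protein genes tested between the lines, 3 were past 2-fold higher in CHLA9 and 1 lower, near those shares, with a median log2 ratio of 0.59. SFPQ, a core paraspeckle protein, stood at 939 CPM in CHLA9 and 571 in TC71, HNRNPK at 661 and 541, CPSF6 at 186 and 76.8 and NUDT21, the partner of CPSF6 in cleavage factor I, at 41.7 and 93.8. Among 16 nuclear speckle genes 2 were past 2-fold higher in CHLA9, with SRRM2 at 577 and 287 CPM, SRSF3 at 713 and 621, SRSF7 at 588 and 606 and PNN at 390 and 448. Both lists had medians above that of all genes, the speckle list at 0.43.

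Of 11 other imprinted genes tested, 2 were past 2-fold higher in CHLA9, near the 16.3% of all genes, and 4 lower, where 8.77% of all genes were, with a median of -0.37. PEG3, a paternally expressed zinc finger gene, had 3533 UMIs in CHLA9 and 0 in TC71, at least 393-fold higher in CHLA9 against a floor of 3 UMIs in the TC71 library. PLAGL1, another paternally expressed zinc finger gene, had 4 UMIs in CHLA9 and 4018 in TC71, a log2 ratio of -11.56 (-13.43 to -10.20). PEG10 stood at 106 and 216 CPM and GNAS at 1260 and 964. Within the region of MEG3, MEG8 had 8.40 CPM in CHLA9 and 1.71 in TC71, MEG9 had 90 UMIs and 1, and the paternally expressed DLK1 had 1 and 46, and these 3 were picked after their values were seen.

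Among 10 other small nucleolar RNA host genes, 1 was past 2-fold higher in CHLA9 and 2 lower, with a median of 0.22. C6orf48 stood at 118 CPM in CHLA9 and 38.8 in TC71, TAF1D at 136 and 78.3, ZFAS1 at 331 and 444 and SNHG25 at 10.1 and 31.3. Of 10 genes of nonsense-mediated decay, 2 were past 2-fold higher in CHLA9 and none lower (median 0.65), with SMG6 at 45.2 and 13.2 CPM, SMG1 at 95.4 and 61.3 and UPF3B at 91.3 and 91.0. None of 17 terminal oligopyrimidine mRNAs was past 2-fold (median -0.16): EEF1A1, the elongation factor that brings tRNA to the ribosome, was at 6262 and 5955 CPM, TPT1 at 3035 and 2936, EEF1D at 631 and 419 and FAU at 810 and 1596. Among 7 other long noncoding RNAs tested, 2 were past 2-fold higher in CHLA9 and 4 lower (median -1.34), with JPX at 183 and 85.1 CPM, FTX at 87.0 and 35.6 and CYTOR at 4.18 and 22.4. The measured members had a median of 1.17.

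TC71 held 5869 barcodes under 5000 UMIs, with a median of 1170 UMIs and 3.39% mitochondrial UMIs and together 11.8% of the library. NEAT1 had 449 CPM in these barcodes and 979 in the kept TC71 cells, a log2 ratio of -1.13 (-1.17 to -1.08), and was the 1 of 5 tested members past 2-fold lower, where 0.237% of 9718 genes were. MALAT1 had 7729 and 7172 CPM. SNHG8, at 145 and 144 CPM, and EPB41L4A-AS1, at 23.9 and 24.6, had intervals of the log2 ratio that included 0. NORAD stood at 75.6 and 126 CPM (log2 ratio -0.73, -0.85 to -0.62), and MEG3, below the 5 CPM mean for the count, at 3.49 and 5.33 from 31 and 311 UMIs.

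The sum over these barcodes hid a gradient. NEAT1 was at 123 CPM (107 to 142) in the 1759 barcodes under 1000 UMIs, 197 (184 to 211) in the 3094 with 1000 to 2000 and 942 (909 to 977) in the 1016 with 2000 to 5000. MALAT1 was at 3875, 4463 and 13948 CPM. Both thus stood far lower under 2000 UMIs than in the class from 2000 to 5000, in which MALAT1 was above and NEAT1 near its level in kept cells. Over barcodes of at least 1000 UMIs alone, NEAT1 was no longer past 2-fold, with a log2 ratio of -0.91, and over those under 1000 UMIs the ratio was -2.99. Mitochondrial percent moved with the classes, with a median of 2.19%, 3.68% and 15.4%.

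Split at 15% mitochondrial UMIs and given as CPM outside MT- genes (per 1000000 UMIs of all other genes), NEAT1 in the class of 2000 to 5000 UMIs was at 652 in the 501 barcodes up to 15% and at 2139 in the 515 above it, and MALAT1 at 13185 and 26904. In barcodes up to 15%, NEAT1 was at 120 and 218 in the classes under 1000 and from 1000 to 2000, and at 1077 in kept cells. SNHG8 was at 177, 170 and 166 in the same 3 classes and at 158 in kept cells. When barcodes were thinned to 1000 UMIs, NEAT1 was found in 15.4% of the 4110 low barcodes that reached that depth and in 52.5% of kept TC71 cells. Shares of SNHG8 were 13.8% and 13.0%, those of MALAT1 90.9% and 95.8% and those of NORAD 6.69% and 11.9%. What these barcodes are, cells with little RNA or droplets with free RNA, was not tested.

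**Figure D2:**
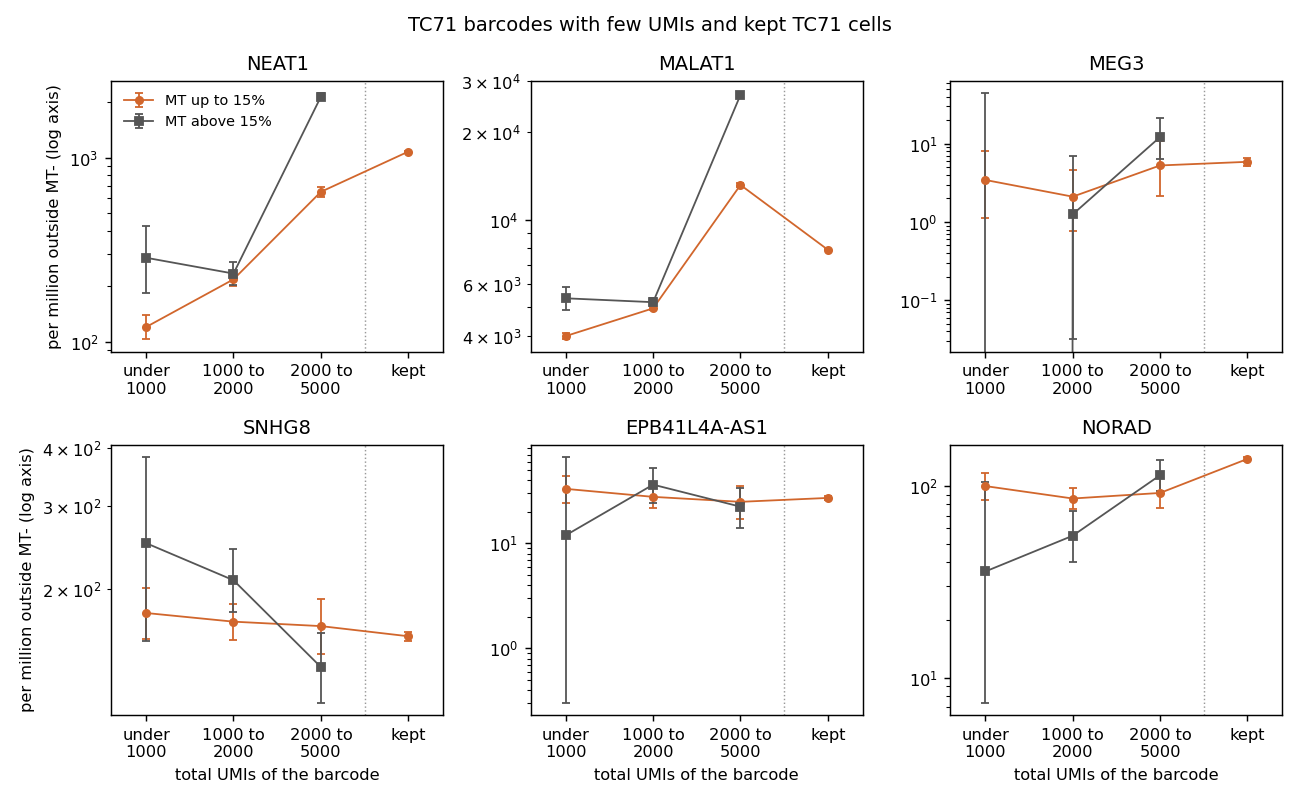
Level of the 6 genes in TC71 barcodes by total UMIs, beside kept TC71 cells to the right of the dotted line, CPM outside MT- genes on log axes, split at 15% mitochondrial UMIs (bars, 95% Poisson intervals, counting error only). NEAT1 goes from 120 under 1000 UMIs to 1077 in kept cells in the group up to 15%, while SNHG8 stays between 158 and 177; MEG3 had no UMI in barcodes under 1000 UMIs above 15%, so that only its interval is drawn.

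CHLA9 held 277 barcodes under 5000 UMIs, which had a median of 62.1% mitochondrial UMIs, against 3.39% in those of TC71. The CHLA9 median differed by class, at 2.54% under 1000 UMIs, 11.3% from 1000 to 2000 and 69.6% from 2000 to 5000. In CPM outside MT- genes, NEAT1 was at 10234 in all 277 and 2444 in kept CHLA9 cells, and MALAT1 at 47837 and 18187. Among CHLA9 barcodes up to 15% mitochondrial UMIs, NEAT1 was at 6659 in the 44 under 1000 UMIs. It was at 8357 in the 27 from 1000 to 2000 and at 2269 in the 11 from 2000 to 5000. MALAT1 was at 29801, 64016 and 41924 in these classes. The TC71 classes up to 15% had NEAT1 lower than in kept TC71 cells, at 120, 218 and 652. This difference between the lines was not tested.

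Kept cells were split into quartile groups by total UMIs, and the highest group was set against the lowest, on a 1.5-fold limit. In CHLA9 these groups had medians of 53954 and 25941 UMIs, and MALAT1 rose from 11264 CPM in the lowest group to 13130, 17723 and 20478, a log2 ratio of 0.86 (0.86 to 0.87). It was the 1 of 6 members past 1.5-fold higher, where 3.21% of 9983 genes were. NEAT1 stood at 1802, 2179, 2326 and 2447 CPM over the groups (log2 ratio 0.44) and SNHG8 at 96.8, 93.6, 74.1 and 71.0 (-0.45), both short of the limit. EPB41L4A-AS1 had a ratio of -0.23 (-0.31 to -0.15), and the intervals of MEG3 and NORAD included 0. With no limit on mitochondrial UMIs the ratio of MALAT1 was 0.48, short of 1.5-fold.

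In TC71 no member passed 1.5-fold between these groups, which had medians of 46608.5 and 21652.5 UMIs. NEAT1 stood at 818, 800, 969 and 1162 CPM from the lowest to the highest group, with a log2 ratio of 0.51 (0.47 to 0.55), and MALAT1 at 6401, 5931, 6830 and 8512, with 0.41 (0.40 to 0.43). The ratios of both lay on the same side of 0 as in CHLA9. The values in TC71 depended on the mitochondrial limit: without it, when barcodes above 15% entered the groups, the log2 ratio was -1.05 for NEAT1 and -1.64 for MALAT1. With the middle 50% of cells by mitochondrial percent alone, they were 0.73 and 0.62, past 1.5-fold.

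**Figure D3:**
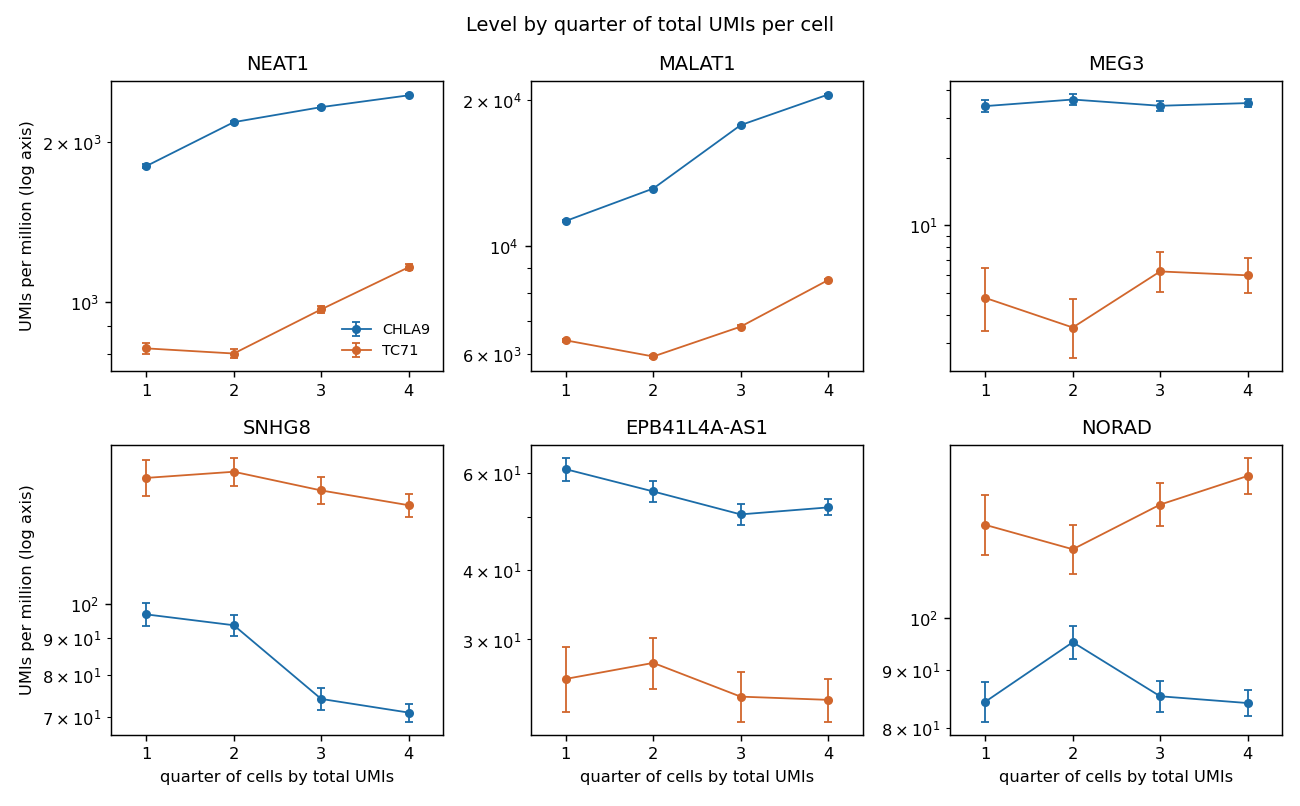
Level of the 6 genes in quartile groups of kept cells by total UMIs, from the lowest to the highest, for CHLA9 (blue) and TC71 (orange), in CPM on log axes with 95% Poisson intervals (counting error only). MALAT1 climbs from 11264 to 20478 in CHLA9, and SNHG8 goes from 96.8 to 71.0.

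Mitochondrial percent was examined in CPM outside MT- genes, since MT- UMIs enter the total. Within kept cells no member was past 1.5-fold between the highest and the lowest quartile group in either line. MALAT1 in CHLA9 was at 20806, 19071, 17079 and 15423 from the lowest to the highest group (log2 ratio -0.43, -0.44 to -0.43), and total UMIs moved with it, from a median of 36181 to 32495. In the middle 50% of cells by total UMIs the ratio was -0.17. NORAD in CHLA9 was at 103 in the lowest and 82.0 in the highest group (-0.33). In TC71, NEAT1 was at 967, 1019, 1083 and 1255 (0.38, 0.34 to 0.41) and MALAT1 at 8129 and 7593 in the outer groups. Across cells, Spearman's rho of the thinned level with mitochondrial percent was -0.242 for MALAT1 and -0.055 for NEAT1 over 4510 CHLA9 cells, and -0.090 and 0.098 over 1670 TC71 cells, which share a library and its depth.

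Barcodes with at least 5000 UMIs and 2000 genes but above 15% mitochondrial UMIs, which the filter left out, were compared with kept cells after the first levels by mitochondrial percent had been seen. There were 181 in CHLA9, with medians of 9328 UMIs and 39.9% mitochondrial UMIs, and 601 in TC71, with 9230 and 42.5%. In CHLA9, MALAT1 was at 80488 CPM outside MT- genes in these barcodes and 18187 in kept cells, a 4.43-fold difference, NEAT1 at 9851 and 2444, 4.03-fold, and MEG3 at 150 and 37.7, 3.97-fold. These 3 of 6 members were past 2-fold higher, where 16.3% of 10628 genes were. SNHG8, at 92.1 and 87.2 (log2 ratio 0.08, -0.17 to 0.32), EPB41L4A-AS1, at 42.7 and 58.2 (-0.45, -0.83 to -0.09), and NORAD, at 139 and 93.8 (0.57, 0.36 to 0.76), were not.

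In TC71, MALAT1 was at 39147 and 7892 CPM, 4.96-fold higher above 15%, NEAT1 at 3866 and 1077, 3.59-fold, and MEG3 at 20.4 and 5.86, 3.47-fold. As in CHLA9, 3 of 6 members were past 2-fold higher, where 25.4% of 10695 genes were. SNHG8 stood at 170 and 158 (0.10, -0.01 to 0.21), EPB41L4A-AS1 at 26.2 and 27.1 and NORAD at 164 and 138. NEAT1, MALAT1 and MEG3 were thus the 3 past 2-fold in both libraries. Their log2 ratios stayed above 1 under each of the 8 alternatives run, with 1.28 to 2.10 for MEG3 in TC71.

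By class, NEAT1 in CHLA9 was at 4653 in the 43 barcodes with 15 to 30%, 15325 in the 111 with 30 to 50% and 14738 in the 27 above 50%, and MALAT1 at 31444, 128860 and 143356. In TC71 the same classes, of 146, 325 and 130 barcodes, had NEAT1 at 2618, 4769 and 5267 and MALAT1 at 22006, 51254 and 59284. NEAT1 in TC71 was highest in the class above 50%, while in CHLA9 the classes from 30% on were close together. Depth moved with the classes as well, with a median of 17825 UMIs in the CHLA9 class from 15 to 30% and 8430 and 8958 in the classes from 30 to 50% and above 50%, and its part was not tested. Of 17 terminal oligopyrimidine mRNAs, 1 in CHLA9 and 1 in TC71 had a log2 ratio above 0, with medians of -0.65 in both lines against 0.27 and 0.31 over all genes, while the other long noncoding RNAs had medians of 0.77 over 7 genes and 1.00 over 8. Of 11 other small nucleolar RNA host genes, 8 in CHLA9 and 10 in TC71 had a ratio above 0, with medians of 0.54 and 0.69.

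**Figure D4:**
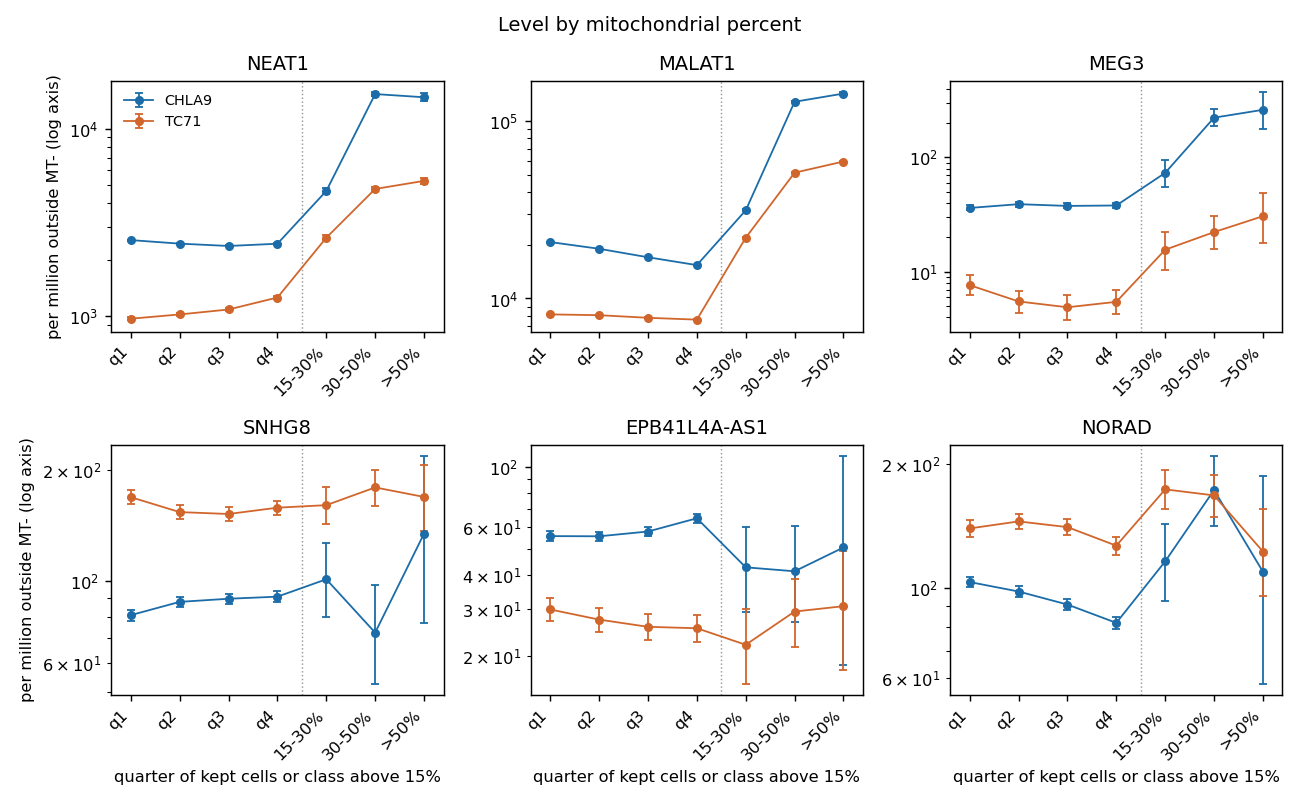
Level of the 6 genes by mitochondrial percent in CHLA9 (blue) and TC71 (orange), CPM outside MT- genes on log axes with 95% Poisson intervals (counting error only). Left of the dotted line are quartile groups of kept cells and right of it barcodes above 15%. NEAT1, MALAT1 and MEG3 stand higher to the right of it in both lines, while the summed SNHG8 and EPB41L4A-AS1 levels differ by less than 2-fold.

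Phases were assigned to the kept cells from S and G2M gene lists, which hold none of the members: 1015 CHLA9 cells in G1, 1743 in S and 1766 in G2M, and 226, 834 and 669 TC71 cells. MALAT1 in CHLA9 was at 9747 CPM in G1, 15119 in S and 21175 in G2M. The log2 ratio of G2M over G1 was 1.12 (1.11 to 1.12) and that of S over G1 0.63 (0.63 to 0.64). MALAT1 was the 1 of 6 members past 1.5-fold higher in both comparisons, where 5.58% of 9993 and 5.45% of 9991 genes were. In TC71 it was at 5721 CPM in G1, 5560 in S and 9346 in G2M, and was the 1 of 6 past 1.5-fold higher in G2M (0.71, 0.69 to 0.72), where 7.02% of 9807 genes were, with a ratio of -0.04 in S.

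Total UMIs moved with phase, with medians of 29196, 35064 and 40896 in G1, S and G2M of CHLA9 and 29047.5, 33034.5 and 37014 in TC71. Among the middle 50% of cells by total UMIs, the log2 ratio of MALAT1 in G2M over G1 was 0.92 in CHLA9 and 0.76 in TC71, and that in S over G1 of CHLA9 was 0.57, short of 1.5-fold. With no limit on mitochondrial UMIs the ratio of MALAT1 in G2M over G1 of TC71 turned to -0.079. Across cells, rho between the thinned MALAT1 level and the G2M score was 0.490 in CHLA9 and 0.494 in TC71, and with total UMIs 0.437 and 0.211. Within TC71 the rho of MALAT1 with the S score was -0.258, and within CHLA9 it was 0.046.

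NEAT1 in CHLA9 was highest in S, at 2546 CPM against 2038 in G1 and 2104 in G2M, and in TC71 highest in G2M, at 1093 against 826 in G1 and 912 in S, with no ratio past 1.5-fold. Its rho with the S score was 0.215 in CHLA9 and 0.006 in TC71, and with the G2M score -0.076 and 0.224. SNHG8 in CHLA9 fell from 107 CPM in G1 to 80.5 in S and 69.5 in G2M, a log2 ratio of G2M over G1 of -0.63 (-0.69 to -0.56), the 1 of 6 past 1.5-fold lower, where 2% of 9993 genes were. Among the middle 50% of cells by total UMIs its ratio was -0.55, no longer past 1.5-fold, and that of NORAD was -0.60, then past it. In TC71 SNHG8 was at 172, 146 and 134 CPM (-0.36, -0.46 to -0.26), short of the limit.

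EPB41L4A-AS1 was at 64.2, 50.2 and 52.6 CPM in G1, S and G2M of CHLA9 and at 28.6, 25.2 and 22.9 in TC71. Of 10 other small nucleolar RNA host genes, 1 in CHLA9 and none in TC71 had a G2M over G1 ratio above 0, with medians of -0.19 and -0.28 against 0.02 and 0.11 over all genes, and 2 in TC71 were past 1.5-fold lower, where 0.755% of 9807 genes were. None of 17 terminal oligopyrimidine mRNAs in CHLA9 and 4 in TC71 had a ratio above 0, with medians of -0.15 in both lines. NORAD was at 102, 91.1 and 76.8 CPM in CHLA9 and at 106, 127 and 129 in TC71, so G1 was its highest phase in CHLA9 and its lowest in TC71. The TC71 intervals of NORAD in S (123 to 131) and G2M (125 to 134) overlapped. Across cells its rho was small, at -0.080 in CHLA9 and 0.029 in TC71 with the G2M score and -0.011 and 0.057 with the S score. MEG3 was at 35.4, 30.1 and 38.6 CPM in CHLA9, and its few TC71 UMIs, 29 in G1, gave intervals of the ratios that included 0.

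**Figure D5:**
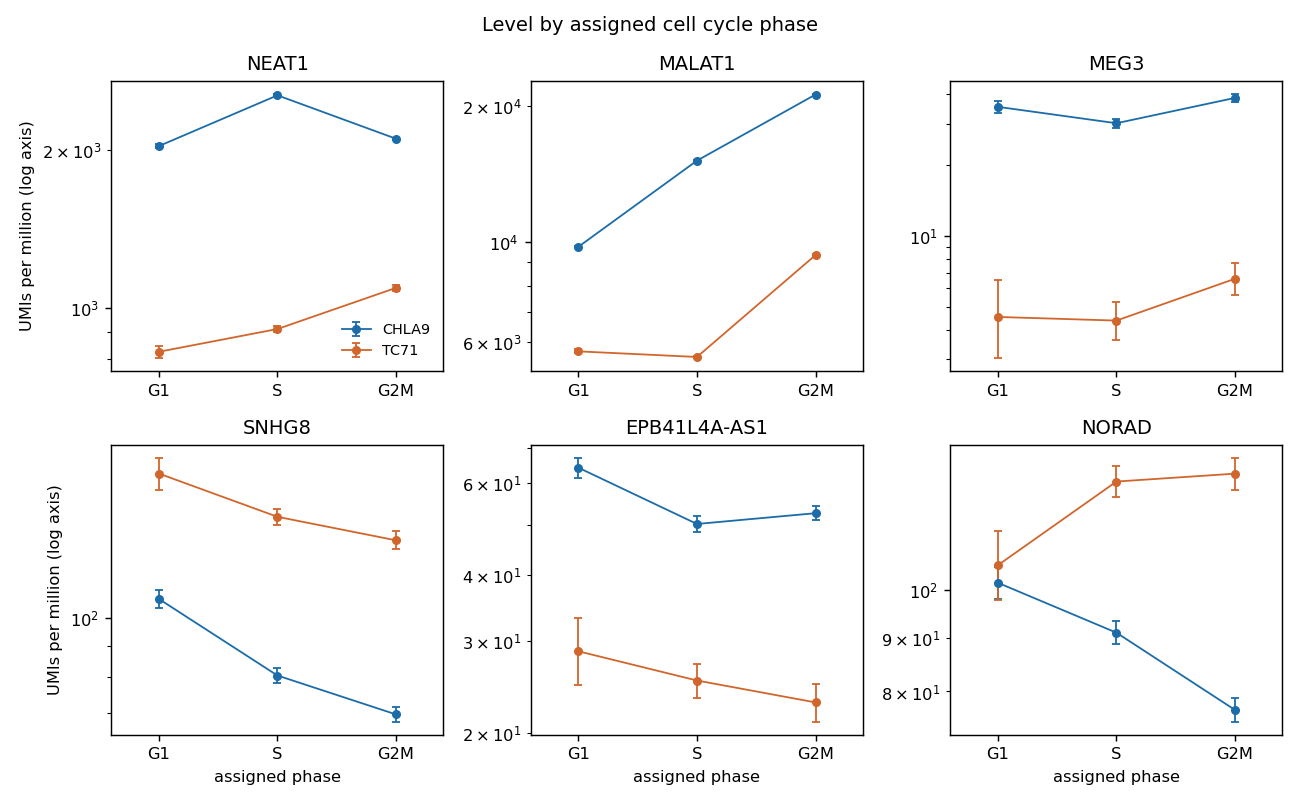
Level of the 6 genes by assigned phase in CHLA9 (blue) and TC71 (orange), in CPM on log axes with 95% Poisson intervals (counting error only). MALAT1 is highest in G2M in both lines, SNHG8 is highest in G1 in both, and NORAD goes from 102 in G1 to 76.8 in G2M in CHLA9 and from 106 to 129 in TC71.

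For each gene found in at least 10% of thinned cells of both lines, which left out MEG3, the 3 genes with the highest rho in the line where it was lower were sought among 7318 genes. The nearest to NEAT1 was MALAT1, with a rho of 0.400 over 4510 CHLA9 cells and 0.467 over 1670 TC71 cells, and the next were FBXO5, an inhibitor of the anaphase-promoting complex (0.176 and 0.219), and the histone gene HIST1H4C (0.173 and 0.409). Those nearest to MALAT1 were ASPM, a spindle pole protein (0.507 and 0.477), CENPF, a kinetochore protein (0.429 and 0.465), and the proliferation marker MKI67 (0.475 and 0.409). These genes are known to peak in mitosis, and cells of a library share its depth and free RNA.

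NORAD was nearest to HNRNPU (0.214 and 0.257), HNRNPA2B1 (0.179 and 0.220) and NCL (0.158 and 0.276), which encode nuclear RNA-binding proteins. The genes nearest to SNHG8 (TOMM20, RPL29 and NPM1) and to EPB41L4A-AS1 (RPL12 and TOMM20 among them) had rho values under 0.12, which in counts this sparse is no finding. Among the pairs of members, MALAT1 with NORAD had a rho of 0.194 in TC71 and 0.018 in CHLA9, and all pairs other than NEAT1 with MALAT1 were below 0.2 in size.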

How the data were processed

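The members and gene lists were chosen with earlier results of these data known. The authors counted UMIs per gene and barcode with Cell Ranger 3.1.0 on hg38 (per the submitters' processing notes) and deposited these raw counts, without normalization, as 1 matrix per line with a gene table and a barcode table. The strand setting of the counting is not given in the sources used here, so reads of overlapping antisense genes may not be told apart. Members were matched by symbol and Ensembl identifier.

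Counts were summed over cells and given as CPM. Intervals were exact Poisson, for ratios exact conditional and for shares Clopper-Pearson, at 95%, from scipy 1.17.1, and cover counting error only, since UMIs from 1 library are not replicates. Ratios were counted past 2-fold between lines and barcode classes and past 1.5-fold within a line, over genes with a mean of at least 5 CPM over both groups. Phases came from Seurat 5.3.0 in R 4.3.3 (seed 1) on genes detected in at least 10 kept cells. Thinning used numpy 2.4.6, Scrublet ran through scanpy 1.11.5, tables used pandas 2.3.3 and figures matplotlib 3.10.9. Named genes were the members, for each member the 3 nearest genes, and from each list the 2 highest in mean CPM and the largest log2 difference between the lines in each direction. Scripts were tested on simulated data. Alternatives covered filters, doublets, denominators, minimum levels, phases and depth. No test was made, because each line has 1 library. A few items of the lists, of the nearest genes and of the sequences are not reported here.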

Additional observations from a re-analysis of the deposited data

Results flagged for a closer look

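In 6 cases the lines had ratios on opposite sides of 0 under the same contrast, with the 95% counting interval of each line leaving out 0. With 1 library per line these differences were not tested. The counting interval leaves out the spread between cells, which was wide for NEAT1 and MALAT1, so it does not settle the sign of a small ratio.

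Between the highest and the lowest quartile group by mitochondrial percent, the log2 ratio of NEAT1 was -0.064 in CHLA9 and 0.38 in TC71. That of SNHG8 was 0.17 and -0.094, and that of EPB41L4A-AS1 0.22 and -0.23. None of these was past 1.5-fold, and the NEAT1 ratio in TC71 was 0.13 when at most 10% mitochondrial UMIs were allowed. Over 12 alternatives, the NEAT1 ratio in CHLA9 ran from -0.13 to 0.12 and the SNHG8 ratio in TC71 from -0.24 to 0.041. Those signs thus did not hold throughout, while the EPB41L4A-AS1 ratios kept theirs in both lines.

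For NORAD, the log2 ratio of G2M over G1 was -0.40 in CHLA9 and 0.29 in TC71, and that of S over G1 -0.16 and 0.27. The G2M over G1 ratios kept these signs under each of the 14 alternatives run, from -0.60 to -0.39 in CHLA9 and from 0.19 to 0.35 in TC71. For MALAT1, the log2 ratio of S over G1 was 0.63 in CHLA9, past 1.5-fold, and -0.041 in TC71, where the alternatives ran from -0.98 with no limit on mitochondrial UMIs, past 1.5-fold lower, to 0.20 with phases scored from all genes.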

How the results depend on the processing

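Of 173 recomputed counts, 159 stayed within 1.5 times of the reported one, and of 858 log2 ratios of single genes 675 moved by less than their counting interval and 1 past its limit reversed: MALAT1 in G2M over G1 cells of TC71 was -0.079 with no limit on mitochondrial UMIs, when its count went from 1 to 0. The same setting took the counts of members past 1.5-fold between UMI quartile groups from 1 to 0 in CHLA9 and from 0 to 3 in TC71, between mitochondrial quartile groups of TC71 from 0 to 3 and in S over G1 cells of TC71 from 0 to 2. A limit of 10% gave 1 between mitochondrial quartile groups of TC71. A minimum mean of 50 CPM left 2 of 4 past 2-fold between the lines, since it tests fewer genes. Low TC71 barcodes of at least 1000 UMIs gave 0 in place of 1. The mean of the CPM of each cell gave 1 in place of 2 in G2M over G1 cells of CHLA9. The middle 50% of cells by the other quantity gave 0 in place of 1 in S over G1 cells of CHLA9, NORAD in place of SNHG8 past 1.5-fold lower in G2M over G1 cells of CHLA9 and 2 in place of 0 between UMI quartile groups of TC71. Thinning to 5000 UMIs took the members found in at least 50% of CHLA9 cells from 4 to 2, those with a rho of at least 0.2 with total UMIs in CHLA9 from 2 to 1 and with the G2M score in TC71 from 2 to 1. Beyond these, the cause was not tested.

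The 4 ratios past 2-fold between the lines kept their direction in all 10 alternatives, from 1.04 to 1.28 for NEAT1, 0.95 to 1.23 for MALAT1, 2.55 to 2.79 for MEG3 and 1.05 to 1.17 for EPB41L4A-AS1. The comparison with barcodes above 15% and the setting without shared barcodes were chosen after seeing the data. No paired analysis was possible because only 1 library of each line was made. With few UMIs, the ratios of MEG3 in TC71 over G1 cells and between the outer UMI groups had intervals that included 0, so a difference there was not detectable at this depth.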
